A study of Homo sapiens with 4 samples.

Results

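The genes described here are 10 genes of the NF-kB pathway, namely the subunit genes NFKB1, NFKB2, RELA and RELB, the inhibitor genes NFKBIA, NFKBIE and TNFAIP3, and the target genes BIRC3, PTGS2 and ICAM1. They were taken by name, with earlier results of these data known, and every probe annotated to them was used. The annotation named 10 probes for 8 of the genes, of 18007 named probes for 13320 genes in all. Expression of BIRC3 and ICAM1 was not analysed here. The cells were CWR22Rv1, an established human prostate cancer line that came from a relapsed xenograft, and their RNA was measured on 4 Illumina bead arrays. The 2 shSiah2 arrays carried RNA of cells that stably expressed a shRNA against Siah2, an E3 ubiquitin ligase, and the 2 pLKO.1 arrays RNA of cells with the control vector. Both groups were grown in serum-supplemented RPMI1640 with puromycin, and the labels describe a single Siah2 shRNA and no rescue. Whether the numbered replicates were separate cultures is not stated, and the p-values then cover the spread between these samples alone, which may be technical.

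NF-kB factors are dimers of RELA, RELB, REL and the processed products of NFKB1 (p50, from p105) and NFKB2 (p52, from p100). In resting cells inhibitor proteins hold them in the cytoplasm. Signals from cytokine and innate immune receptors lead to the loss of the inhibitor (the canonical route) or to the processing of p100, the partner of RELB (the non-canonical route). Many genes of the pathway, among them NFKB2, NFKBIA, TNFAIP3 and PTGS2, are themselves known NF-kB targets, and PTGS2 encodes cyclooxygenase-2, the inducible enzyme that starts prostaglandin synthesis from arachidonic acid.

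RefSeq promoter windows (GRCh38.p14), each from 250 bases before to 50 after an annotated transcription start, were found for 8 of the 10 genes. RELB and NFKBIE had no window. BIRC3 and ICAM1, which have no expression value here, had a window and are included in the counts of motifs. Windows are shown for NFKB2 and PTGS2, which each had a probe that passed the test, and for NFKBIA, the member with the lowest change. Capitals mark matches, on either strand, to the kB consensus GGGRNNYYCC, to the CRE core TGACG and to the TATA box TATAAA. In the consensus R is A or G, Y is C or T and N is any base. The first NFKB2 window is chr10:102394328-102394627 on the plus strand and the second is chr10:102395455-102395754 on the plus strand. The NFKBIA window is chr14:35404700-35404999 and the PTGS2 window chr1:186680374-186680673, both on the minus strand.
NFKB2 first window: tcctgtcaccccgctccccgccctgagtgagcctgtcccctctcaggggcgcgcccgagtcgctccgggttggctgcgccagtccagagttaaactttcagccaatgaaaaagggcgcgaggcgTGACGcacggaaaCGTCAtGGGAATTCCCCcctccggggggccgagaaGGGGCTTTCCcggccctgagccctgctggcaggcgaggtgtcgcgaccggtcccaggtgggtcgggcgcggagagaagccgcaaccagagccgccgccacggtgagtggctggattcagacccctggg
NFKB2 second window: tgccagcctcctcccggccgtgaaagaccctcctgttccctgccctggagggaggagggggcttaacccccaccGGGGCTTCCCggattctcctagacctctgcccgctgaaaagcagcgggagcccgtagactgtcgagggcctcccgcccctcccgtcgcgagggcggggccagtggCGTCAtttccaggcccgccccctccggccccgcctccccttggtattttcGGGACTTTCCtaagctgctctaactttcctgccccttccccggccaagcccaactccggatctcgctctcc
NFKBIA: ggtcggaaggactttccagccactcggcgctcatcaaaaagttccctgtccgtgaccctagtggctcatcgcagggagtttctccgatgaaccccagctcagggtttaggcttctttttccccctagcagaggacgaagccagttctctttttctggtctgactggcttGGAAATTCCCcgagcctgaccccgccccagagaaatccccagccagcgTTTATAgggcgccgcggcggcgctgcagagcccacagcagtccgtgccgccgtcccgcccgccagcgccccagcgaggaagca
PTGS2: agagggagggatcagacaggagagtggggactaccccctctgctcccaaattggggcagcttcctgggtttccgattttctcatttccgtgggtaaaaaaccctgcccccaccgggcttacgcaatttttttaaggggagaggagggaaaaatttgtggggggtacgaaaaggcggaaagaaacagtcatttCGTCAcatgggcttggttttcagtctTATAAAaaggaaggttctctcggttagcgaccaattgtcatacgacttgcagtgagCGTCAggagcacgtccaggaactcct
The first NFKB2 window held 3 kB matches, the earliest beginning 107 bases before the start; a match there overlapped another by all but 1 base. The second window held 2, beginning 176 and 21 bases before the start. A further NFKB2 window held none. The NFKBIA window held 1 kB match, 81 bases before the start, and a TATA box. The PTGS2 window held no match to the kB consensus as searched. Near its upstream end it held gggactaccc, which misses that consensus by 1 letter and was not counted or marked. The PTGS2 window also held a TATA box beginning 32 bases and a CRE core beginning 58 bases before the start, and another CRE core after the start. The kB consensus matched 5 of the 8 member genes with a window, BIRC3 among them. By window the kB consensus matched 6 of the 12 member windows and 11.3% of all 35116 windows. The CRE core matched 7 of the 12 member windows and 24.6% of all windows, and the TATA box 3 of the 12 and 11.5%. Some genes, NFKB2 among them, had more than 1 window, and the members were chosen as genes of this pathway. The matches are letters in these windows and not measured binding.

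The knockdown was checked first. SIAH2 had signals of 185.2 and 196.8 on the shSiah2 arrays, against 334.5 and 490.5 on the pLKO.1 arrays, and its log2 level fell by 1.85 (SE 0.251, with limma adjusted p = 0.00117). Each array detected between 19862 and 20632 of 47228 probes, at a mean signal between 650 and 846, and the lowest signal of a detected probe was between 140.7 and 154.1. Arrays of a group correlated at 0.983 (shSiah2) and 0.985 (pLKO.1), against 0.957 to 0.969 between groups. With so few arrays the precision is limited by their number. The epithelial markers KRT8, KRT18, EPCAM and CDH1 were detected on all arrays. The named endothelial marker probes, for KDR and TEK, were detected on at most 1 array per group. The marker genes PTPRC and PECAM1 were not analysed here. Changes are differences of normalized log2 intensity (shSiah2 minus pLKO.1) with standard errors (SE) and limma p-values adjusted over 20750 tested probes, and rose and fell are used at an adjusted p under 0.05. Each mean in a group is of 2 arrays.

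Of the pairs of probes for PTGS2 and for NFKB2, 1 probe each rose in shSiah2 cells, while no member probe fell by the test. All 10 member probes were tested, 2 were called higher and 0 lower by limma, and 8 did not pass, where 6.19% of all tested probes were called, 2.47% higher and 3.72% lower. At an unadjusted p under 0.05 limma passed 4 member probes higher and 1 lower, against 10.1% and 11% of all tested probes. The 4 higher were the NFKB2 and PTGS2 pairs. Among them the dimmer PTGS2 probe entered the test only through the shSiah2 arrays, where it was higher, and is no separate support. By gene, each on its brightest probe, limma called 1 of 8 higher and 0 lower, and passed 2 higher and 1 lower at the unadjusted threshold. The NFKB2 probes were nearly equal in brightness, and the one used in that count, ILMN_1799062, was the one that was not called. The groups' arrays did not overlap for 5 member probes that were higher and 1 that was lower in shSiah2 cells. Of all tested probes 50.3% did not overlap, 26.2% higher and 24.1% lower. The higher member probes were RELA and the NFKB2 and PTGS2 pairs, and the dimmer PTGS2 probe was detected on shSiah2 arrays alone. In bulk RNA, a change in the share of a kind of cell and a change in RNA per cell cannot be told apart. The median change of the 10 probes was 0.50, beside 0.02 over all tested probes. Only NFKB2 and PTGS2, the genes with a probe that rose, had 2 probes each. Over the 8 genes, each by its brightest probe, the median was 0.19, with 4 genes positive and 4 negative. Because the members were chosen with earlier results of these data known, the shares and medians over all tested probes are given for scale only.

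**Figure D1:**
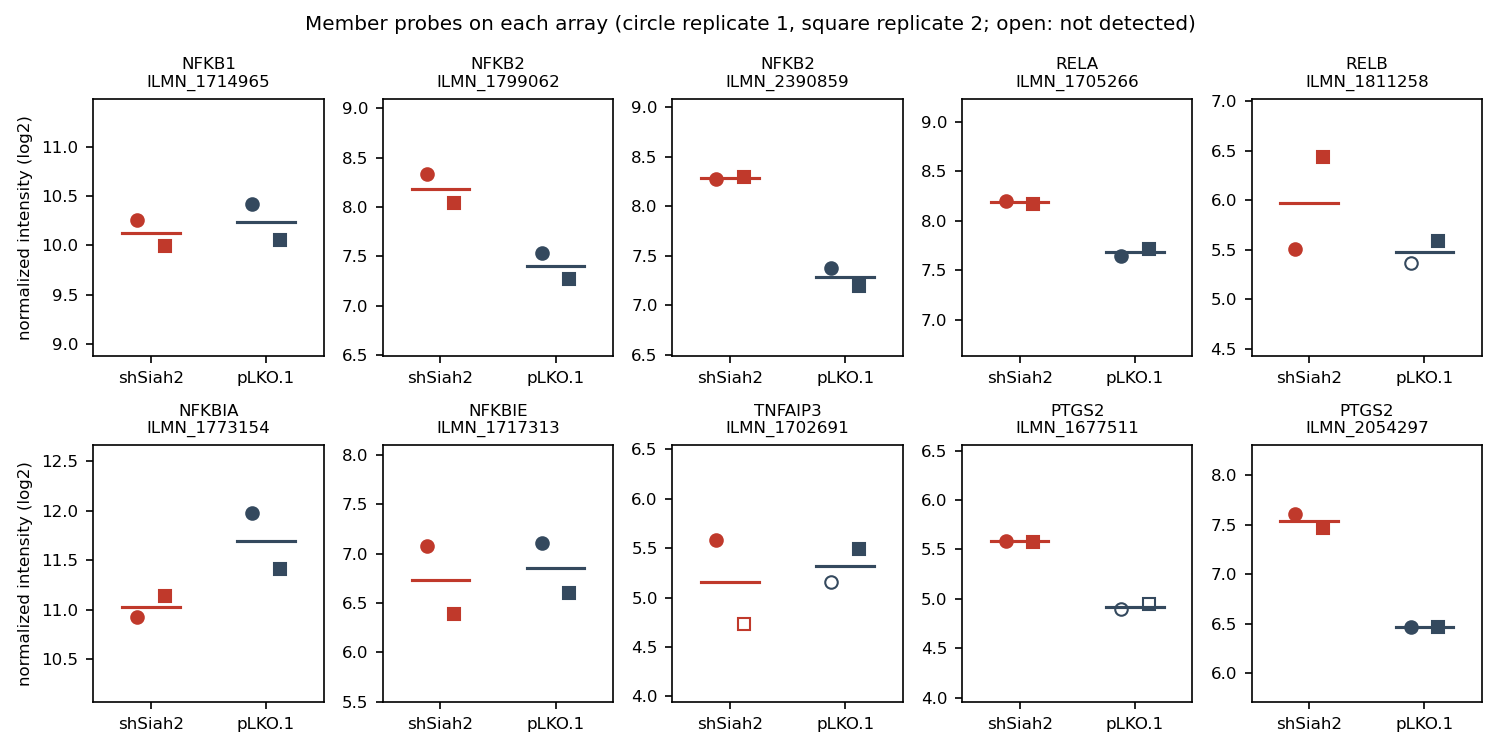
Normalized log2 intensity (vertical axis, the same height of scale in each panel) of each member probe on the 2 shSiah2 arrays (red, left) and the 2 pLKO.1 arrays (blue, right). Bars are group means, and open symbols are arrays on which the probe was not detected; the groups stand apart for both NFKB2 and both PTGS2 probes, RELA and NFKBIA.

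Of the subunits, NFKB2 was measured by a pair of probes annotated to different transcripts. Probe ILMN_2390859 had signals of 433.3 and 393.5 on the shSiah2 arrays, against 244.3 and 277.5 on the pLKO.1 arrays. Probe ILMN_1799062 had signals of 446.2 and 348.4 on the shSiah2 arrays, against 260.9 and 288.2 on the pLKO.1 arrays. Both probes were detected on all 4 arrays, and on both every shSiah2 array lay above every pLKO.1 array. ILMN_2390859 averaged 8.29 ± 0.013 in shSiah2 cells and 7.29 ± 0.135 in pLKO.1 cells (normalized log2, SD, n = 2 each) and rose by 1.00, or 2.00-fold (SE 0.240, adjusted p = 0.0311 by limma). ILMN_1799062 averaged 8.19 ± 0.203 in shSiah2 cells and 7.40 ± 0.185 in pLKO.1 cells (SD, n = 2 each), a change of 0.79 that did not pass (SE 0.250, adjusted p = 0.0915 by limma, 95% interval 0.24 to 1.33). The changes of the NFKB2 probes differed by 0.22, less than the SE of either, and that difference was not tested. ILMN_2390859 did not pass when any array was left out, at 1.10 less pLKO.1 replicate 1 (adjusted p = 0.0967), 0.91 less pLKO.1 replicate 2 (adjusted p = 0.139), 1.01 less shSiah2 replicate 1 (adjusted p = 0.0605) and 0.99 less shSiah2 replicate 2 (adjusted p = 0.0922), all by limma. It was 0.64 without background correction, and with no filter on dim probes it missed the threshold (adjusted p = 0.0552 by limma). ILMN_1799062 passed with an offset of 50 (0.68, adjusted p = 0.0472 by limma).

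RELA, which encodes the p65 transactivating subunit, had signals of 416.9 and 369.5 on the shSiah2 arrays, against 273.5 and 353.8 on the pLKO.1 arrays. After normalization the arrays did not overlap, at 8.20 and 8.17 in shSiah2 cells and 7.65 and 7.71 in pLKO.1 cells. The change of 0.51 did not pass (SE 0.237, adjusted p = 0.247 by limma, 95% interval -0.01 to 1.03), and 12.7% of all tested probes had a change at least as high. RELB, the partner of p52, was dim, with signals of 155.4 and 192.8 on the shSiah2 arrays, against 136.4 and 153.6 on the pLKO.1 arrays, the first of which did not detect it. Both shSiah2 signals were above both pLKO.1 signals, but after normalization 1 shSiah2 array lay between the pLKO.1 arrays and the other above them. The RELB change was 0.50 (SE 0.309, adjusted p = 0.398 by limma), 0.03 without shSiah2 replicate 2 and 0.96 without shSiah2 replicate 1, neither of which passed. NFKB1, the gene of p105 and p50, had signals of 1381.8 and 991.6 on the shSiah2 arrays, against 1293.2 and 1406.5 on the pLKO.1 arrays. The NFKB1 groups overlapped, and the change was -0.11 (SE 0.254, adjusted p = 0.852 by limma, 95% interval -0.67 to 0.44), with a sign that turned to 0.07 without pLKO.1 replicate 1 and to 0.01 without shSiah2 replicate 2.

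Of the inhibitors, NFKBIA encodes IkB-alpha, the inhibitor that is degraded on canonical signalling and made again as an early target. It had signals of 2109.0 and 2011.4 on the shSiah2 arrays, against 3707.8 and 3487.8 on the pLKO.1 arrays. Both shSiah2 arrays lay below both pLKO.1 arrays, on the opposite side from NFKB2 and PTGS2. The normalized means were 11.03 ± 0.147 in shSiah2 cells and 11.69 ± 0.397 in pLKO.1 cells (SD, n = 2 each), and the change of -0.66 did not pass (SE 0.267, adjusted p = 0.180 by limma, 95% interval -1.25 to -0.08). The normalized pLKO.1 values were 11.97 and 11.41, and the change was -0.94 without pLKO.1 replicate 2 and -0.38 without pLKO.1 replicate 1. With the authors' value table in place of the intensities it was -0.73 and passed (adjusted p = 0.0298 by limma).

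NFKBIE, which encodes IkB-epsilon, and TNFAIP3, which encodes the ubiquitin-editing enzyme A20, had overlapping groups. NFKBIE had signals of 247.7 and 190.1 on the shSiah2 arrays, against 220.0 and 216.6 on the pLKO.1 arrays, and a change of -0.12 (SE 0.294, adjusted p = 0.865 by limma, 95% interval -0.77 to 0.52). TNFAIP3 had signals of 158.2 and 121.8 on the shSiah2 arrays, against 128.9 and 149.1 on the pLKO.1 arrays. It was detected on 1 array of each group, so its change of -0.17 (SE 0.303, adjusted p = 0.815 by limma, 95% interval -0.83 to 0.49) was measured close to the background. The sign of both genes turned when single arrays were left out, with NFKBIE between -0.46 (without shSiah2 replicate 1) and 0.22 (without shSiah2 replicate 2) and TNFAIP3 between -0.59 and 0.26 for the same arrays.

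PTGS2 was the member with the largest rise. Its brighter probe ILMN_2054297 had signals of 310.7 and 272.1 on the shSiah2 arrays, against 178.6 and 205.6 on the pLKO.1 arrays. It was detected on all 4 arrays, and the groups did not overlap. The normalized means were 7.54 ± 0.100 in shSiah2 cells and 6.47 ± 0.0029 in pLKO.1 cells (SD, n = 2 each), a rise of 1.07, or 2.10-fold (SE 0.239, adjusted p = 0.0228 by limma), and 1.72% of all tested probes had a change at least as high. Without background correction the change was 0.55 (adjusted p = 0.0418 by limma), and in the authors' value table it was 0.73 (adjusted p = 0.0180 by limma). The call was lost when pLKO.1 replicate 1 (1.07, adjusted p = 0.107), pLKO.1 replicate 2 (1.07, adjusted p = 0.0812) or shSiah2 replicate 1 (1.00, adjusted p = 0.0618) was left out, all by limma, and held at 1.14 when shSiah2 replicate 2 was.

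The other PTGS2 probe, ILMN_1677511, had signals of 158.4 and 157.4 on the shSiah2 arrays, against 118.2 and 125.1 on the pLKO.1 arrays. Neither pLKO.1 array detected it, so it entered the test only through the shSiah2 arrays, where it was higher. Its groups did not overlap, with the shSiah2 arrays higher. Its change of 0.66 did not pass (SE 0.237, adjusted p = 0.132 by limma), and measured against the lowest level of a detected probe it was at least 1.09-fold higher in shSiah2 cells. The change was 0.25 without background correction, 0.35 with an offset of 50 and 0.42 in the authors' value table, none past the threshold. The probes of each pair, for NFKB2 and for PTGS2, had the same sign, with 1 probe of each past the threshold. For PTGS2 the sign of the dimmer probe is no separate support, because of how that probe entered the test.

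**Figure D2:**
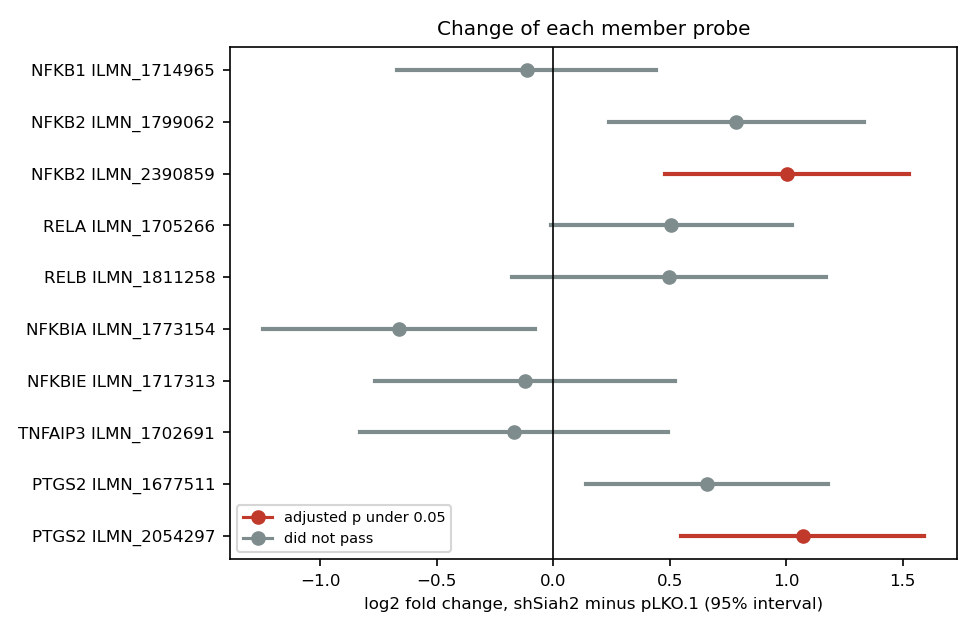
Change of each member probe (horizontal axis, log2 fold change, shSiah2 minus pLKO.1) with its 95% interval from limma. The probes that passed, in red, are NFKB2 ILMN_2390859 at 1.00 and PTGS2 ILMN_2054297 at 1.07; the intervals of NFKB1, RELA, RELB, NFKBIE and TNFAIP3 include 0.

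**Figure D3:**
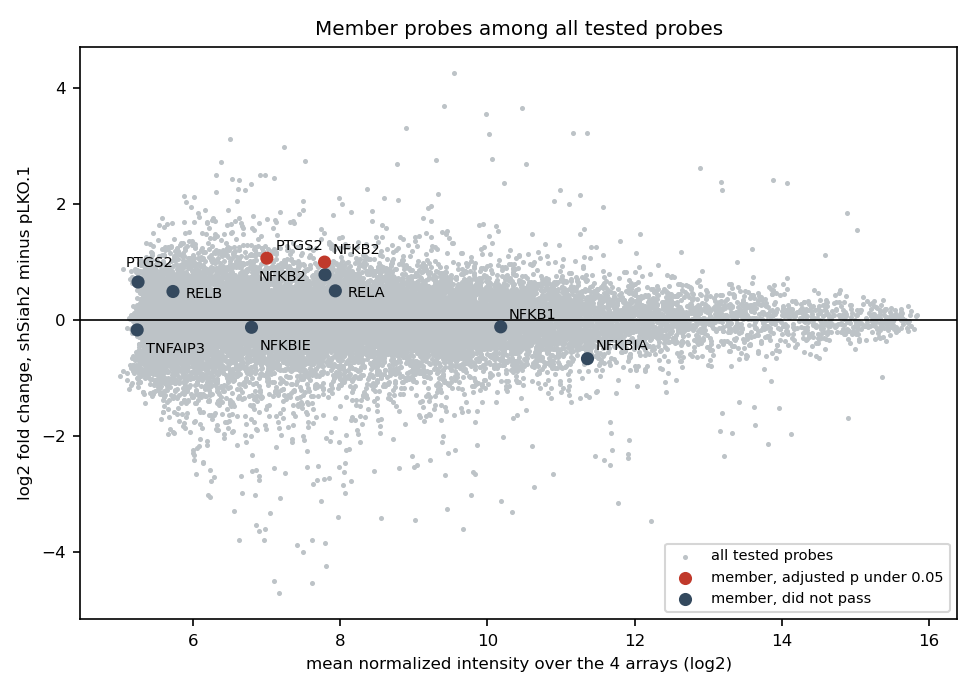
Mean normalized intensity over the 4 arrays (horizontal axis, log2) and change (vertical axis, log2 fold change, shSiah2 minus pLKO.1) of 20750 tested probes in grey, with the member probes labelled by gene. The rises of PTGS2 (1.07) and NFKB2 (1.00) lie at the upper edge of the dense cloud, and other probes reach far larger changes.

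Other genes of the pathway were taken from 5 lists, each gene represented by its brightest tested probe, and most did not pass. For scale, limma called 2.47% of all tested probes higher and 3.72% lower. At an unadjusted p under 0.05 limma passed 10.1% higher and 11% lower. The lists are small, and none was tested as a set. Of 11 tested further subunit and inhibitor genes, 1 rose, 0 fell and 10 did not pass, with a median change of -0.17 over genes and, of the opposite sign, 0.36 over all 14 of their tested probes. The gene that rose was REL, which encodes the remaining subunit, c-Rel. REL probe ILMN_1766085 had signals of 269.6 and 351.4 on the shSiah2 arrays, against 190.7 and 190.4 on the pLKO.1 arrays, and rose by 1.20 (SE 0.300, adjusted p = 0.0374 by limma). Its other probe was at 0.54 and did not pass (adjusted p = 0.269 by limma). The REL call was lost in the fits that left out pLKO.1 replicate 1 (1.42), pLKO.1 replicate 2 (0.99) or shSiah2 replicate 2 (0.81), with no filter on dim probes, and without background correction (0.64). NLRC3, an innate signalling regulator, on probe ILMN_3234784, which no shSiah2 array detected, at -0.81 (at least 1.42-fold higher in pLKO.1 cells), TNIP1, a partner of A20, at -0.54 and NFKBIZ, an atypical nuclear IkB, at 0.50 did not pass. NLRC3 ILMN_3234784 was -0.39 less pLKO.1 replicate 1 and -1.22, past the threshold, less pLKO.1 replicate 2 (adjusted p = 0.0494 by limma). The other NLRC3 probe was detected on 1 shSiah2 array and no pLKO.1 array and was not tested. Limma at an unadjusted p under 0.05 passed 1 gene each way in this list.

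Of 21 tested kinases and adaptors, 0 rose, 1 fell and 20 did not pass (median -0.07). MYD88, the adaptor of interleukin-1 and Toll-like receptors, had signals of 213.9 and 194.8 on the shSiah2 arrays, against 367.7 and 418.9 on the pLKO.1 arrays. It fell by 1.59 (SE 0.245, adjusted p = 0.00264 by limma), a call kept in every alternative and with each array left out, although it was -0.91 without background correction. At an unadjusted p under 0.05 limma passed 2 higher and 4 lower in this list. The IKK complex genes CHUK at 0.39, IKBKB at -0.43 and IKBKG at -0.07, and MAP3K14, the kinase of the non-canonical route, at 0.34, did not pass. BIRC2, the ubiquitin ligase cIAP1, at 0.77 and TAB1, an adaptor of the kinase TAK1, at -0.72 did not pass either; the other BIRC2 probe was at 0.39 and the other TAB1 probes at 0.02 and 0.36. BIRC2 probe ILMN_2182704 passed with an offset of 50, with the authors' value table and with an intensity trend. It was 1.10 and passed less shSiah2 replicate 1 and was 0.45 less shSiah2 replicate 2, and TAB1 was -1.04 and -0.40 for the same arrays, neither past the threshold.

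Of 6 tested receptors and ligands, 1 rose and 5 did not pass (median 0.25). TNFRSF12A encodes Fn14, the receptor of the cytokine TWEAK. Its signals were 1389.4 and 1018.8 on the shSiah2 arrays, against 368.1 and 447.0 on the pLKO.1 arrays, and it rose by 1.93 (SE 0.242, adjusted p = 0.000618 by limma), a call kept in every alternative and with each array left out. TNFRSF9 at 0.45 and TNFRSF1A, the main TNF receptor gene, at -0.35 did not pass. The interleukin gene IL1B was detected on 1 array and was not tested.

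Of 13 tested further target genes, 1 rose, 0 fell and 12 did not pass (median 0.10). SAT1, a polyamine-acetylating enzyme gene, had signals of 4679.9 and 3732.7 on the shSiah2 arrays, against 1829.0 and 2268.4 on the pLKO.1 arrays. It rose by 1.26 (SE 0.239, adjusted p = 0.00952 by limma), and missed the threshold without pLKO.1 replicate 2 (1.19, adjusted p = 0.0506 by limma). CFLAR, the caspase-8 inhibitor gene, at -0.98 and IER3 at 0.93 did not pass, and neither did the chemokine gene CXCL8 at -0.27 or the superoxide dismutase gene SOD2 at 0.69. CFLAR passed in 5 of 9 processing alternatives, with an adjusted p as low as 0.0218 by limma when detection on all 4 arrays was required, and less shSiah2 replicate 1 (-1.17), and it was -0.43 without background correction. IER3 passed in 4 of 9 and less shSiah2 replicate 2 (1.31), and was 0.55 less shSiah2 replicate 1 and 0.52 without background correction. Limma at an unadjusted p under 0.05 passed 3 higher and 1 lower among the target genes.

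Of 11 tested genes of prostaglandin synthesis, reception and transport, 2 rose besides PTGS2, 0 fell and 9 did not pass (median 0.46). SLCO2A1, the prostaglandin transporter gene, had signals of 413.0 and 273.1 on the shSiah2 arrays, against 131.2 and 155.2 on the pLKO.1 arrays, the first of which did not detect it. It rose by 2.41 (SE 0.291, adjusted p = 0.000473 by limma), a call kept in the 8 processing alternatives that could test it and with each array left out, at 1.11 without background correction. PLA2G4A, which encodes the cytosolic phospholipase A2 that releases arachidonic acid, had signals of 171.0 and 162.3 on the shSiah2 arrays, against 113.1 and 126.0 on the pLKO.1 arrays, neither of which detected it. PLA2G4A therefore entered the test only through the shSiah2 arrays, the group where it was higher. It rose by 0.93 (at least 1.28-fold, SE 0.242, adjusted p = 0.0440 by limma). That call was lost with any array left out, without background correction (0.34), with an offset of 50 (0.51), in the authors' value table (0.59), with no filter and with an intensity trend. The prostaglandin E synthase gene PTGES at -0.60, the prostaglandin-degrading enzyme gene HPGD at -0.60, PTGDS at -0.87 and the receptor gene PTGER4 at 0.52 did not pass; limma at an unadjusted p under 0.05 passed 2 higher and 3 lower. PTGDS was -1.38 and passed less pLKO.1 replicate 2 (adjusted p = 0.0245 by limma), and was -0.36 less pLKO.1 replicate 1 and likewise without background correction. PTGS1, the constitutive cyclooxygenase gene, was detected on 1 array and was not tested.

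**Figure D4:**
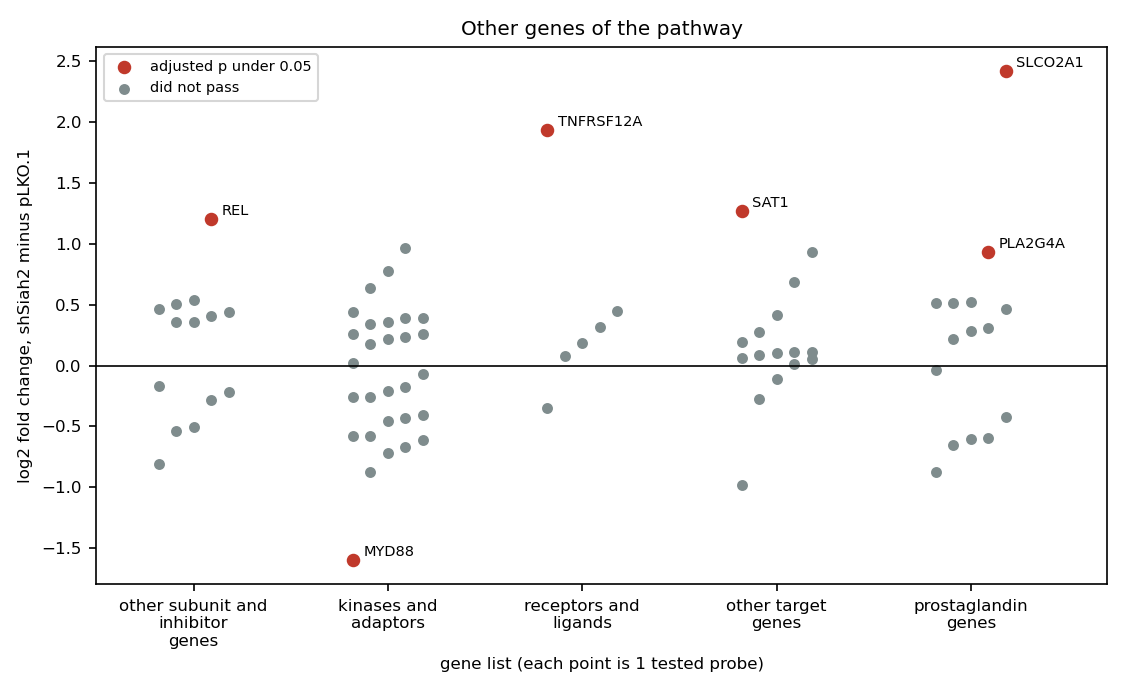
Change of each tested probe (vertical axis, log2 fold change, shSiah2 minus pLKO.1) in the 5 lists of other pathway genes (horizontal axis). Red points passed and are named: REL, TNFRSF12A, SAT1, SLCO2A1 and PLA2G4A rose and MYD88 fell. PLA2G4A was detected on shSiah2 arrays alone.

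Some stromal markers differed between the groups, in both directions. Of 4 tested stromal genes, LUM rose by 1.32 and ACTA2 by 1.10, DCN fell by 1.98 on its brighter probe and was at 0.67 on another that no pLKO.1 array detected (at least 1.21-fold higher in shSiah2 cells), and COL1A1, detected on 1 array of each group, was at 0.11. The summed signal of that list was 4602 and 4523 on the shSiah2 arrays, against 2310 and 3247 on the pLKO.1 arrays. For the leukocyte list, of which CD14 and CD68 were tested and did not pass, it was 2612 and 1744 on the shSiah2 arrays, against 1570 and 2096 on the pLKO.1 arrays. For the basal list, of which KRT15 was tested and did not pass (-0.78), the summed signal was 276.9 and 261.8 on the shSiah2 arrays, against 270.5 and 307.9 on the pLKO.1 arrays. That sum is of 2 probes close to the background. Neither shSiah2 array detected a basal gene, and the pLKO.1 arrays detected 1 and 2. All of these sums are of signals before normalization. Of the 8 tested luminal markers 4 fell, HOXB13, TMPRSS2, FOLH1 and STEAP2, and 0 rose, where 3.72% of all tested probes were called lower. The part of these markers in the changes of PTGS2 and NFKB2 was not tested.

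**Figure D5:**
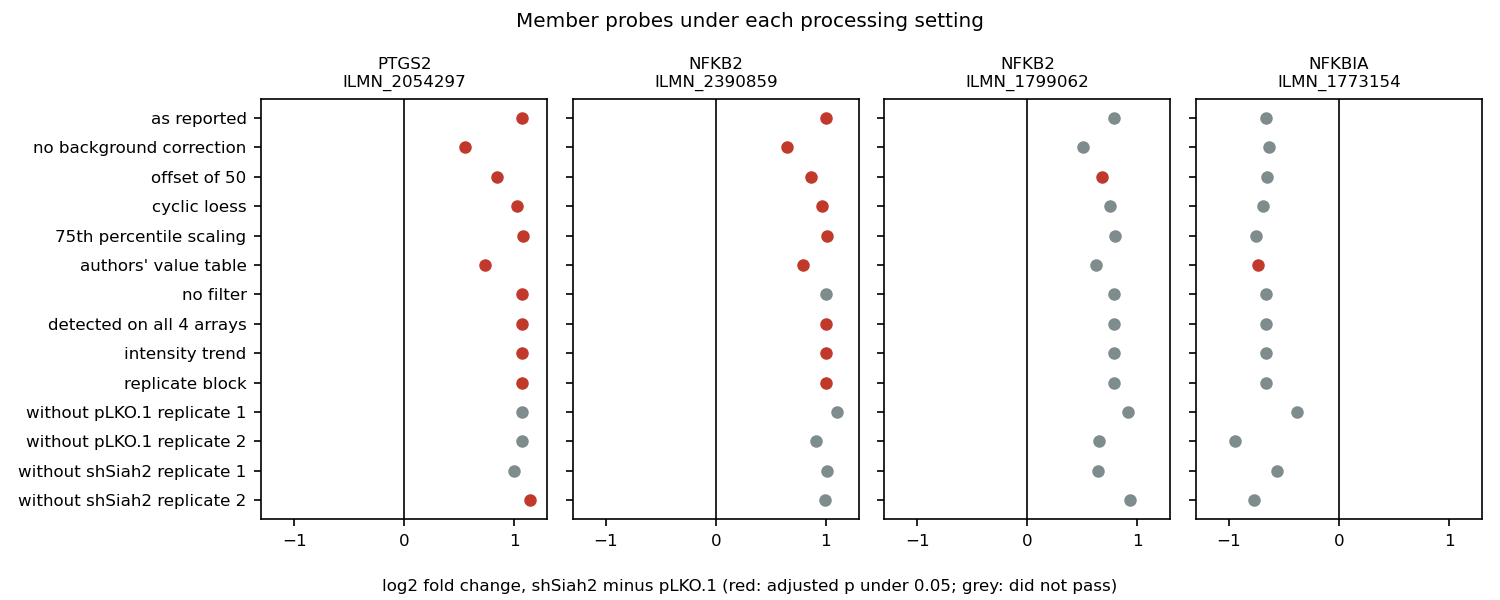
Change (horizontal axis, log2 fold change, shSiah2 minus pLKO.1) of 4 member probes as reported and under each of 13 other settings (vertical axis), with red for an adjusted p under 0.05 and grey otherwise. The sign is the same throughout for these probes, PTGS2 ILMN_2054297 lies between 0.55 and 1.14, and NFKBIA passes with the authors' value table.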

How the data were processed

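The authors deposited an unnormalized linear intensity and a detection p-value for each of 47228 probes on each array. Their deposited value table holds log2 values of 24733 probes, exactly those that some array detected at a p under 0.05. Its scaling between arrays is unknown, its column medians were between 7.59 and 7.62, and its slope against the log2 intensity of bright probes was 1.01 to 1.04. The scanner software is not given in the sources used here.

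For the values used here, the neqc function of limma 3.58.1 (R 4.3.3) was applied to the intensities (normexp background from the detection p-values, offset 16, quantile normalization, log2). The 20750 probes that 2 or more arrays detected entered a two-sided test by lmFit and eBayes without covariates, with Benjamini-Hochberg adjustment at 0.05. Exact permutation of 2 against 2 arrays cannot go below 0.333, so it was not used.

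Gene names came from the platform annotation, updated through Entrez IDs to a RefSeq table (GRCh38.p14). One symbol was found for 18007 probes, 4 had several and 29217 were unnamed here. The members, lists and motifs were chosen with earlier results of these data known. Named were all member probes, SIAH2 and every list gene with a called probe. Also named were the 3 genes per list with the largest change on the brightest tested probe. Some dimmer probes changed more, as TRAF6 ILMN_1783910 (0.96) and TRADD ILMN_1793831 (-0.87), neither of which passed. Others (NFKBIZ, CHUK, IKBKB, IKBKG, MAP3K14, IL1B, CXCL8, SOD2, PTGES, HPGD, PTGER4, PTGS1 and the markers) are named for their role, after their values were seen. A probe detected on no array of a group is given a bound, using on each such array the lowest detected value where that exceeds the probe's own.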

Additional observations from a re-analysis of the deposited data

How the results depend on the processing

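SIAH2 stayed lower and past the threshold in every alternative, between -1.89 and -1.03 over the processing settings and between -2.00 and -1.69 with single arrays left out. With no filter on dim probes 640 probes were called in all (1284 as reported), and 520 to 1329 with each array left out, the fewest (520) without pLKO.1 replicate 1, then 800 in the fit that lacked shSiah2 replicate 2. The count of member probes called higher was 1 with no filter and 0 to 1 with 1 array left out, where the lone array of a group is assumed to vary like the others; the 1 was PTGS2. The count called lower was 1 with the authors' value table, which was NFKBIA. The median change of the member probes was 0.21 without background correction, 0.33 with an offset of 50 and 0.34 with the authors' value table, and lay between 0.39 and 0.57 with each array left out. The cause of these moves was not tested.

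With each array left out, the change lay between -0.30 and 0.0693 for NFKB1, between -0.46 and 0.22 for NFKBIE, between -0.59 and 0.26 for TNFAIP3 and between -0.0748 and 0.12 for TAB1 probe ILMN_1772817, and so changed sign. RELB, TNFAIP3 and PTGS2 ILMN_1677511 could not be tested when detection on all 4 arrays was required. The labels number the replicates but state no pairing, so the numbers were not taken as pairs. The same-numbered arrays of the groups had deviations that correlated at 0.0891, which does not settle whether they were paired. With the replicate block 1815 probes were called (1284 as reported), and 2 member probes higher as without it. Cyclic loess, 75th percentile scaling and an intensity trend also left 2 member probes higher. Signal over background limits TNFAIP3, RELB and the dimmer PTGS2 probe most.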
